A study of Mus musculus with 6 samples.

Results

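The chromatin around 7 keratin genes was examined in NMuMG cells, a mouse mammary gland epithelial line, before and after treatment with TGFβ1. The genes were the 4 simple keratins Krt7, Krt8, Krt18 and Krt19 and the 3 basal keratins Krt5, Krt14 and Krt17. Their regions were chosen by position, as every accessible region whose nearest edge lay within 100 kb of the 5′ end of one of the genes, with a region counted once where windows overlapped. This gave 52 of the 39435 regions found in any condition. Accessible chromatin was mapped by ATAC-seq, in which the transposase Tn5 inserts adapters into DNA that is not covered by nucleosomes. All cells were kept without serum for 6 h. They then received vehicle for 2 h, 5 ng/ml TGFβ1 for 2 h or 5 ng/ml TGFβ1 for 12 h, with 2 biological replicates in each of the 3 conditions. Since vehicle was sampled at 2 h, the effect of 12 h of TGFβ cannot be told apart from that of the longer serum deprivation. All cells came from 1 line, and a smaller number of cells with an open region cannot be told apart from a smaller opening in every cell.

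The deposited data are 3 lists of peaks, 1 for each condition, each made from both replicates. They hold no value for a single replicate and no read counts, so no difference between conditions could be tested. Counts and shares are therefore given as descriptions with 95% Wilson intervals, which cover counting error only, beside the same share over the whole series. A region is a set of listed intervals of 150 bp or more with gaps under 1000 bp joined, and a union region is the same after joining the lists. The vehicle list was the shortest, with 16765 regions against 32548 at 2 h and 33079 at 12 h. Read depth is stated in the study's supplement and not in the lists, and the mapped reads summed over replicates were most numerous for vehicle and fewest at the later TGFβ time point. Of 10 epithelial markers, the vehicle list covered the 5′ end of 1, the 2 h list of 2 and the 12 h list of 3. Over all protein-coding genes these lists covered 35.9%, 41.4% and 41.5% of 5′ ends. The epithelial transcription factor gene Elf3 was covered in all lists (975 bp in vehicle, then 1138 and 1149 bp under TGFβ), and Cdh1, which encodes E-cadherin, was covered by 431 bp in both TGFβ lists and not in vehicle. None of the 5′ ends of 4 leukocyte, 3 endothelial, 3 fibroblast and 2 adipocyte markers was covered in any list, although a region lay within 1000 bp of 1 fibroblast marker, Col1a1, in every list.

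Keratins build the intermediate filaments of epithelial cells, and each filament pairs a type I with a type II keratin. Krt8 (type II) and Krt18 (type I) form the founding pair of simple epithelia such as the luminal layer of the mammary gland, where Krt7 and Krt19 accompany them, whereas Krt5 (type II) and Krt14 (type I) form the pair of basal and myoepithelial cells. Krt17 is a type I keratin of basal cells and of injured epithelium. Type II genes and Krt18 are clustered on chromosome 15 and the other type I genes on chromosome 11, and loss of keratins is a known feature of the epithelial to mesenchymal transition that TGFβ can drive.

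To show the DNA behind the results, the 100 bases before the start of the longest coding transcript are given for the 3 simple keratins whose start was open in every list and for Krt17, whose start was in no list. They are read 5′ to 3′ on the strand of the gene from NCBIM37 (mm9), at chr15:101834774-101834873 for Krt8, chr15:101858547-101858646 for Krt18, chr11:100007435-100007534 for Krt19 and chr11:100122344-100122443 for Krt17. Capitals mark the TATA box letters TATAAA.
Krt8: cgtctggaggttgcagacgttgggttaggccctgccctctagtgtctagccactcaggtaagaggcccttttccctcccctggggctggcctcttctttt
Krt18: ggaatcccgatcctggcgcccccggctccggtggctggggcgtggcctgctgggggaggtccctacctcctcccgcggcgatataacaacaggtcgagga
Krt19: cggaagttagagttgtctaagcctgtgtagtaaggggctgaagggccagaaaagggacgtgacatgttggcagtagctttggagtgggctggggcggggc
Krt17: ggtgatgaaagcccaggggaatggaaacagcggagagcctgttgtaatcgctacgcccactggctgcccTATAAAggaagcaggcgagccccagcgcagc
Among the 7 genes only Krt17 held these letters in this window, beginning 31 bp before its start, against 4.55% of 22350 protein-coding genes measured from the gene record. A match is a description of the letters and not of a bound factor.

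AP-1 factors pair a JUN protein with a FOS protein, and the site they recognise is TGAGTCA, or TGACTCA on the other strand. For the regions that the results turn on, 41 bases around a match are given on the plus strand, with the site in capitals. They lie upstream of Krt8 (chr15:101835845-101835885), upstream of Krt18 (chr15:101846727-101846767), downstream of Krt18 (chr15:101886803-101886843), upstream of Krt7 (chr15:101218803-101218843) and at the start of Krt80 (chr15:101201115-101201155). The others lie in an intron of a noncoding Krt19 transcript, upstream of the coding start (chr11:100009051-100009091), and at the start of Krt16 (chr11:100110487-100110527). Each label names the region that holds the site. The sites printed for Krt8 and upstream of Krt18 lie outside the 500 bp around the centre of their regions.
Krt8 start, all 3 lists: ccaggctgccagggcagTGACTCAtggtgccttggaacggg
Krt18 upstream, all 3 lists: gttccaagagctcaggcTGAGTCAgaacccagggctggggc
Krt18 downstream, 2 h alone: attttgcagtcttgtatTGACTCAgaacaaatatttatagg
Krt7 upstream, both TGFβ lists: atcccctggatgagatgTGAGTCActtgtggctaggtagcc
Krt80 start, both TGFβ lists: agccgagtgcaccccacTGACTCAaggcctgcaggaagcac
Krt19 intron, both TGFβ lists: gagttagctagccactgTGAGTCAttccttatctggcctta
Krt16 start, both TGFβ lists: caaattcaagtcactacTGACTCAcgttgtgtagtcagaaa

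The starts of Krt8, Krt18 and the coding transcript of Krt19 were open in all conditions, and the starts of Krt7, Krt5, Krt14 and Krt17 were in no list. The region over the 5′ end of Krt8 (chromosome 15, 101834773) measured 1538 bp in vehicle, which became 1711 bp after 2 h and 2643 bp after 12 h. It was thus widest at 12 h, where it reached further into the gene. The region joined 2 listed intervals in vehicle, 2 at 2 h and 3 at 12 h, and any gap between joined intervals counts in the width. The region over the 5′ end of Krt18 (chromosome 15, 101858647) spanned 703 bp in vehicle, 544 bp after 2 h and 846 bp after 12 h, so that it was narrowest at 2 h. The gene record of Krt19 begins at 100009979 on chromosome 11 with a noncoding transcript, and that position was in no list. Its coding transcript begins at 100007434, and the region over this start spanned 1512 bp in vehicle, 1368 bp after 2 h and 1411 bp after 12 h. A second region lay upstream of this coding start, in an intron of the noncoding transcript and 708 bp from the start of the gene record. It was absent in vehicle and 276 and 322 bp wide in the 2 h and 12 h lists. By the gene record, 2 of 7 members were covered in each list, and by any annotated transcript start 3 of 7. Over all 22380 protein-coding genes, the vehicle list covered 35.9% of 5′ ends, the 2 h list 41.4% and the 12 h list 41.5%.

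The CpG content of the starts was compared as well. The CpG ratio, the number of CG dinucleotides relative to that expected from base composition within 500 bp of the start, was 0.438 for Krt8, 0.548 for Krt18 and 0.420 for the coding start of Krt19. Krt5, Krt14 and Krt17 had lower ratios of 0.284, 0.292 and 0.320. The coding start of Krt7 had a ratio of 0.566 and was in no list. At the gene records, Krt7 and Krt19 had ratios of 0.0783 and 0.235, and both were uncovered. Over the series, measured at gene records, the median ratio was 0.774 at starts covered in vehicle and 0.302 at those not covered, and of the 4257 genes with a ratio from 0.25 to 0.5 only 9.07% were covered in vehicle. Krt8 is in this class and was covered, while Krt5, Krt14 and Krt17 are in it and were not. Krt18 is among the genes with a ratio from 0.5 to 0.75, of which 52.7% were covered in vehicle.

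**Figure D1:**
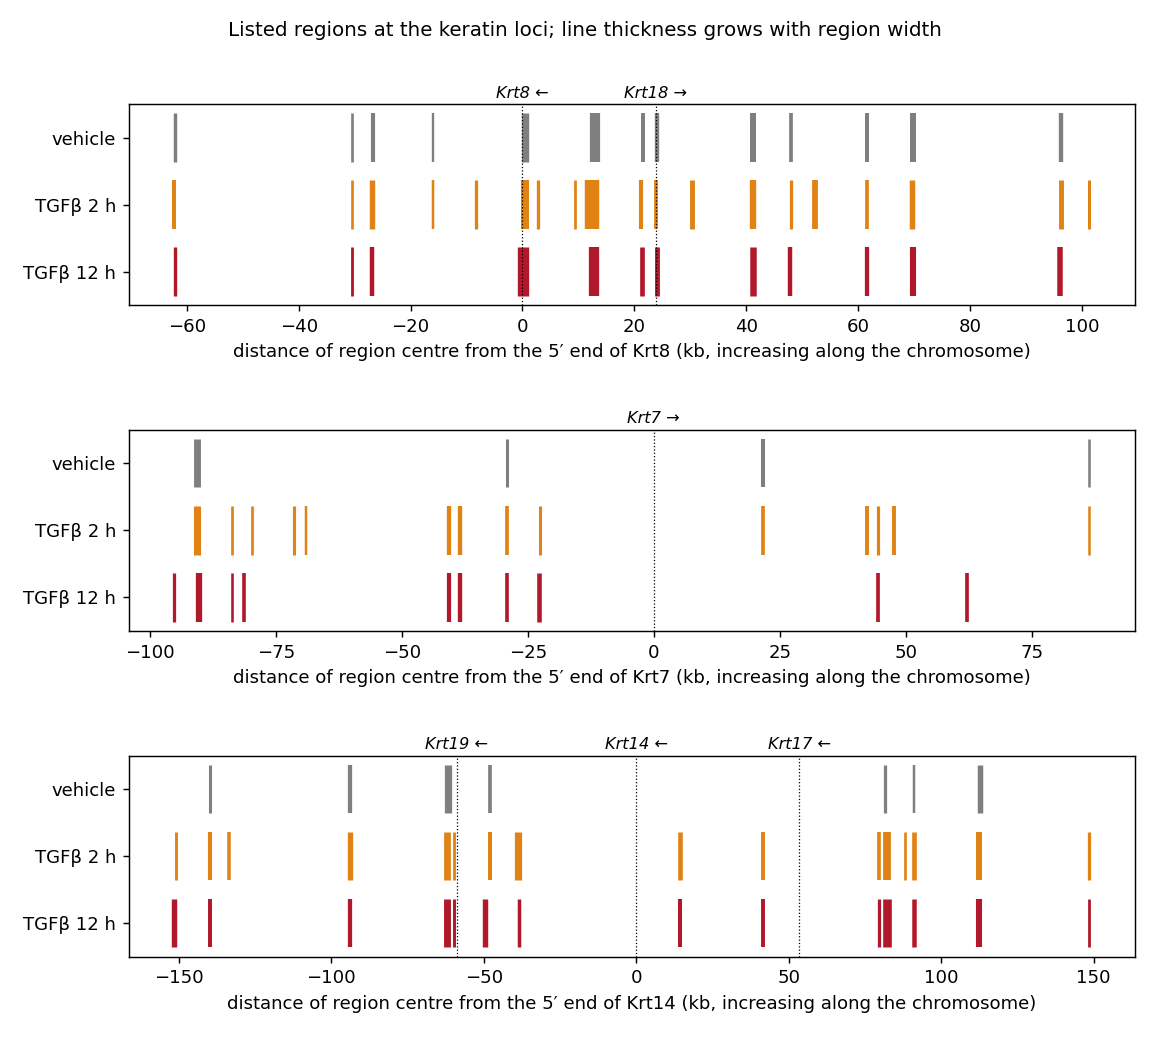
Regions of each list (rows) at 3 of the loci, placed by the distance of their centre from the 5′ end of Krt8, Krt7 or Krt14 in kb. Line thickness grows with width and is not on the scale of the axis, dotted lines mark 5′ ends and arrows the direction of transcription. The 12 h row at Krt8 and Krt18 holds 12 regions, each also in the vehicle row, whereas the Krt7 and Krt14 panels hold regions in the TGFβ rows with none in the vehicle row. Krt5 had no region within 100 kb and is not drawn.

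Over the 52 regions, 21 were in all 3 lists (40.4%, 28.2 to 53.9), beside 38.4% of the series. There were 12 in both TGFβ lists without vehicle (23.1%, 13.7 to 36.1), beside 28.5%. A further 13 were found at 2 h alone (25%, 15.2 to 38.2), beside 12.9%, and 3 at 12 h alone (5.77%, 1.98 to 15.6), beside 16.3%. The remaining 3 were in vehicle and 2 h (5.77%, 1.98 to 15.6), beside 2.25%. No region was in vehicle alone or in vehicle and 12 h (0 of 52, upper limit 6.88%), patterns that made up 1.16% and 0.388% of the series. The series shares for the regions found only at 2 h and only at 12 h lay outside these intervals, and the other series shares given lay inside them. Regions of a locus are neighbours and are not independent of each other. With the TGFβ lists shortened to as many intervals as vehicle, the share in both TGFβ lists without vehicle was 11.1%. The series share was not computed with shortened lists, so this value has no like value beside it.

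By list, vehicle contributed 24 regions to the keratin windows, TGFβ for 2 h 49 and TGFβ for 12 h 36. A vehicle region was lacking for 25 of the 49 at 2 h (51.0%, 37.5 to 64.4), beside 50.7% in the series, and for 16 of the 36 at 12 h (44.4%, 29.5 to 60.4), beside 53.9%. Between the TGFβ lists, 17 of the 49 regions at 2 h had no region at 12 h (34.7%, 22.9 to 48.7), beside 18.9% of the series. The lower depth of the 12 h libraries applies to both shares, and its part in them was not tested.

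**Figure D2:**
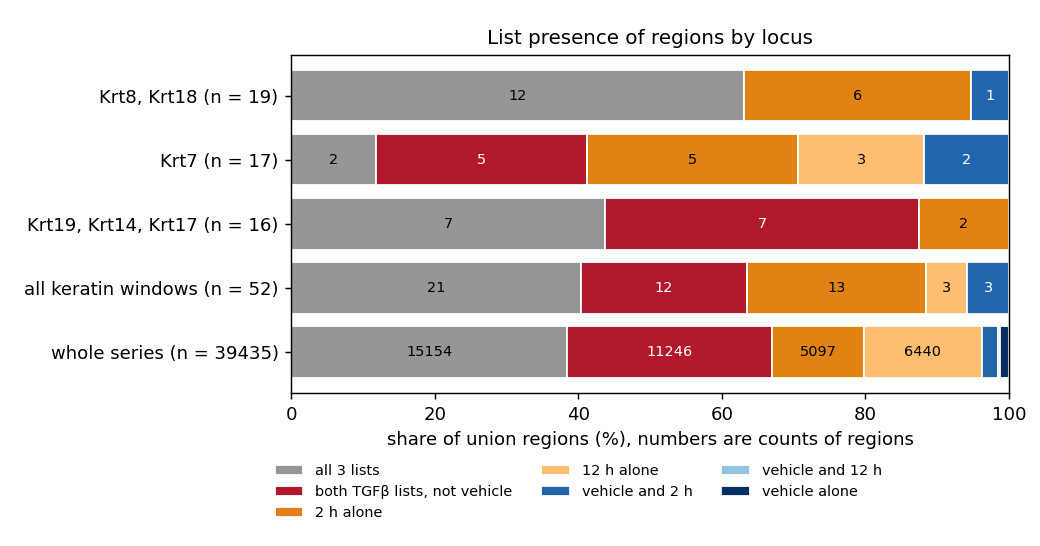
Share of union regions (x axis, %) by the lists they were found in, for each locus, all keratin windows and the whole series, with the number of regions printed in the larger bars. The Krt8 and Krt18 locus has 12 regions in all 3 lists, 6 at 2 h alone and none in both TGFβ lists without vehicle, while the other loci with regions have 5 and 7 of the latter.

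The loci differed in how these patterns were divided. Krt8 and Krt18 lie 23874 bp apart and shared 18 of the 19 regions in their joint window. Of the 19, 12 were in all 3 lists (63.2%, 41.0 to 80.9), beside 38.4% of the series. There were 6 at 2 h alone (31.6%, 15.4 to 54.0), beside 12.9%, and 1 in vehicle and 2 h, beside 2.25%. None was in both TGFβ lists without vehicle (0 of 19, upper limit 16.8%), beside 28.5% of the series. Each of the 12 regions at 12 h overlapped a region of both other lists. The nearest region in both TGFβ lists without vehicle lay 163062 bp from Krt8 and 139188 bp from Krt18, at chr15:101997835-101998492. Of all protein-coding genes, 37.3% had no such region within 100 kb, the median gene having 5 regions of any kind there against 18 for Krt8 and 19 for Krt18.

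The regions at 2 h alone stood on both sides of the Krt8 and Krt18 pair. A region of 414 bp lay 2608 bp upstream of Krt8, one of 254 bp lay 9317 bp upstream and one of 407 bp lay 8176 bp downstream of its 5′ end. Downstream of the 5′ end of Krt18, one of 854 bp lay at 5978 bp, one of 1107 bp at 27816 bp and one of 327 bp at 77265 bp, the last in an intron of Tenc1. The region of 1107 bp holds the AP-1 site printed above and was the only one of these 6 with an AP-1 match in its central 500 bp. Krt8 had 5 regions at 2 h alone, a number that 47 protein-coding genes reached or passed (0.210%), and Krt18 had 6, which 12 genes reached or passed (0.0536%). These shares rank the genes and are not a test, because Krt8 and Krt18 count largely the same regions. Their windows were also dense, and their 18 and 19 regions of any kind were reached or passed by 1.09% and 0.715% of genes. Krt7 had 5 regions at 2 h alone as well. With the TGFβ lists shortened to the number of intervals in vehicle, the pair had 2 regions at 2 h alone.

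The widest and second widest regions at 12 h, over the start of Krt8 and upstream of Krt18, were at this pair. A region 9784 bp upstream of Krt18 had a width of 2325 bp in vehicle, 3490 bp after 2 h and 2347 bp after 12 h, so that the extension at 2 h was not found at 12 h. It joined 3 listed intervals in vehicle, 4 at 2 h and 3 at 12 h. A region 2089 bp upstream of Krt18 grew from 594 bp in vehicle to 650 bp after 2 h and 799 bp after 12 h. The starts of Eif4b, a translation initiation factor gene, and Tenc1, which encodes a tensin, lay in the same window and were also in all 3 lists. The vehicle region missing at 12 h in this locus was narrow, 160 bp in vehicle and 192 bp at 2 h, and lay 15971 bp downstream of the 5′ end of Krt8.

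The window of Krt7 held 17 regions, of which 2 were shared by all 3 lists and 2 by vehicle and 2 h. A further 5 stood in both TGFβ lists and not in vehicle, and 5 appeared only at 2 h and 3 only at 12 h. These numbers were reached or passed by 4.24%, 0.210% and 4.98% of protein-coding genes, and the 17 regions of any kind by 1.75%. A vehicle region was lacking for 10 of the 14 regions at 2 h (71.4%, 45.4 to 88.3) and for 8 of the 10 at 12 h (80.0%, 49.0 to 94.3). Both intervals include the series shares of 50.7% and 53.9%. The nearest region in both TGFβ lists lay 22467 bp upstream of the gene record, 333 bp wide at 2 h but 770 bp at 12 h, and holds the AP-1 site printed above. Another covered the start of Krt80, a neighbouring type II keratin gene, with a width of 687 bp at 2 h, while the region at 12 h, of 671 bp, began 29 bp away from that start. Of the regions at 12 h alone, one of 517 bp lay 41 bp from the 5′ end of Krt86, a hair keratin gene. The vehicle regions missing at 12 h were one of 614 bp in an intron of Krt83, also a hair keratin gene, which was 514 bp wide at 2 h, and one of 211 bp located 86258 bp downstream, which was 207 bp wide at 2 h. No region of any list lay within 5 kb of the 5′ end of Krt7. With the TGFβ lists shortened as above, 2 regions at Krt7 were in both of them without vehicle.

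Krt5 had no region in any list within 100 kb, as did 14.4% of protein-coding genes. It lies in a stretch of 389943 bp on chromosome 15 without a region, from 101327962 to 101717904. This stretch holds the 5′ ends of 15 protein-coding genes, 13 of them named as keratins, among them the epidermal keratins Krt1 and Krt2 and the wound-induced keratins Krt6a and Krt6b. The median distance between neighbouring regions of the series was 19996 bp, and 2.74% of 39415 gaps were at least as long. The window of its partner Krt14 held 11 regions.

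The window of Krt19, Krt14 and Krt17 held 16 regions. All 3 lists shared 7 of them, another 7 stood in both TGFβ lists and not in vehicle, and 2 appeared only at 2 h. The share in both TGFβ lists without vehicle was 43.8% (23.1 to 66.8), and this interval includes the series share of 28.5%. Near Krt14 no region lay within 5 kb of the 5′ end, and the nearest, in both TGFβ lists without vehicle, lay 13993 bp upstream 772 bp wide at 2 h but 611 bp at 12 h. The nearest region to Krt17 lay 11538 bp downstream of its 5′ end and covered the start of Krt16, a keratin of injured epidermis. This region had the same limits at 2 h and 12 h, 585 bp wide, and was absent in vehicle. It holds 2 AP-1 matches, of which 1 is printed above. Krt14 and Krt17 each had 5 regions in both TGFβ lists without vehicle, which 4.24% of protein-coding genes reached or passed, and Krt19 had 4, reached or passed by 9.02%. These genes count in large part the same 7 regions, so the shares rank them and are not a test.

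Regions in all lists at this locus changed in both directions. One region 27829 bp upstream of Krt17 went from 400 bp in vehicle to 1655 bp after 2 h and 1896 bp after 12 h, the largest gain in width of the set. It held 1 listed interval in vehicle and joined 2 in each TGFβ list, so the gain came with a further interval and any gap between the 2. Another, 8767 bp upstream of Krt19, is counted as being in all 3 lists because its parts were joined, but its parts did not coincide. Vehicle and 2 h regions of 520 and 606 bp overlapped each other, whereas the 12 h region of 1008 bp, at chr11:100018746-100019753, overlapped neither. The start of Eif1, a translation initiation factor gene, was in all lists, at 1018, 1146 and 1180 bp.

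**Figure D3:**
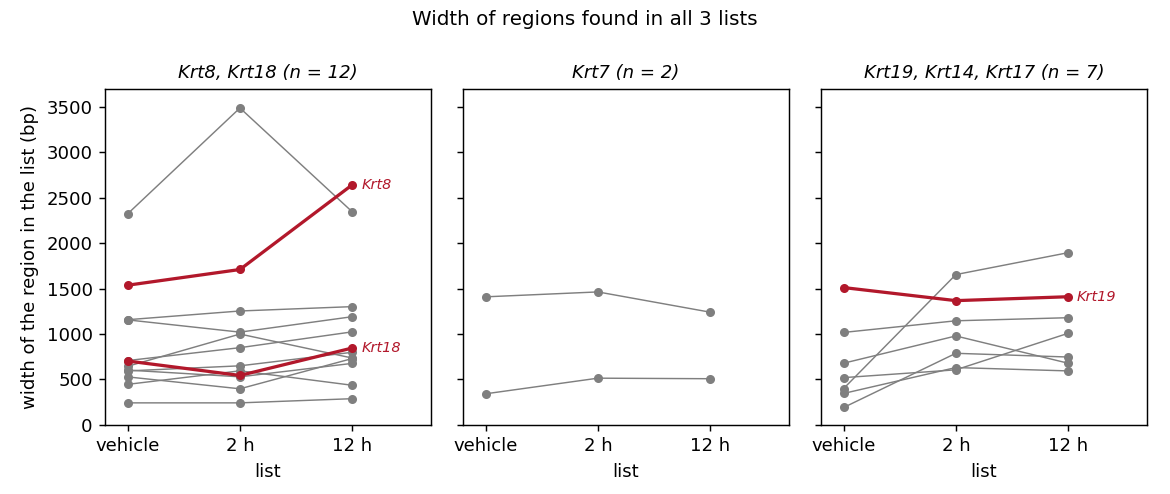
Width in bp (y axis) in each list (x axis) of the regions found in all 3 lists, 1 line per region, with the regions over the starts of Krt8, Krt18 and the coding transcript of Krt19 in red. The Krt8 line rises from 1538 to 2643 bp, while the Krt19 line stays between 1368 and 1512 bp. There are no error bars because each list gives 1 width.

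Regions that matched a single region of the other list were compared in width. From vehicle to 2 h, 16 of 24 matched regions were wider (66.7%, 46.7 to 82), with a median difference of 91 bp and a range from -159 to 1255 bp. Over the series 82.7% were wider, with a median of 147 bp. The upper limit for the keratin windows was just under that share. With gaps under 2000 bp joined or a minimum width of 300 bp the interval included it (51.8 to 86.8 and 48.1 to 85.5). Under every other setting run the upper limit stayed below it. That limit was 79.8% with gaps under 500 bp joined, and 79.7% and 80.9% with windows of 50 and 200 kb. It was 80.3% with a reciprocal overlap of 50% and 78.4% with the shortened TGFβ lists, which have no series share of their own. Dropping the minimum width or using all transcript starts left the interval unchanged. From vehicle to 12 h, 16 of 20 were wider (80.0%, 58.4 to 91.9), with a median of 143.5 bp, beside 83.6% and 175 bp. At Krt8 and Krt18, 8 of 13 were wider at 2 h and 11 of 12 at 12 h, with medians of 56 and 117 bp.

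**Figure D4:**
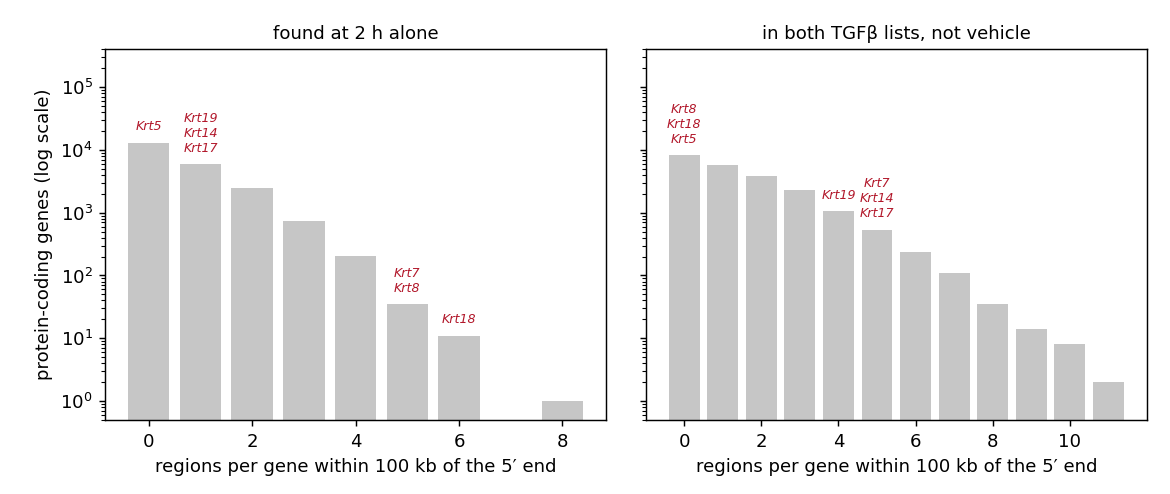
Number of protein-coding genes (y axis, log scale) by the number of regions within 100 kb of their 5′ end (x axis), for regions at 2 h alone (left) and in both TGFβ lists without vehicle (right), with the 7 keratin genes named above their bar. Krt7, Krt8 and Krt18 stand at 5 or 6 regions on the left, and on the right Krt8, Krt18 and Krt5 stand at 0 and the others at 4 or 5.

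An AP-1 site lay in the central 500 bp of 21 of the 52 regions (40.4%, 28.2 to 53.9), beside 35.5% of all union regions. Among regions more than 1000 bp from any annotated start the share was 16 of 40 (40%, 26.3 to 55.4), beside 45.9%. Among those within 1000 bp of a start it was 5 of 12 (41.7%, 19.3 to 68.0), beside 10.1%. The share was 7 of 12 for regions in both TGFβ lists without vehicle (58.3%, 32.0 to 80.7, with 47.3% in the series). Of these 12, 8 lay more than 1000 bp from a start, and 4 of the 8 held a site (50%, 21.5 to 78.5), beside 51.6%. For regions at 2 h alone it was 3 of 13 (23.1%, 8.18 to 50.3, with 32.3% in the series). All 13 lay more than 1000 bp from a start, where the series share for this pattern was 33.4%. By locus a site was in 9 of 17 regions at Krt7 (31.0 to 73.8%) and 7 of 16 at Krt19, Krt14 and Krt17 (23.1 to 66.8%). At Krt8 and Krt18 it was in 5 of 19 (11.8 to 48.8%). Each of these intervals includes the 35.5% of all union regions. Over whole regions a site was in 27 of the 52 (51.9%), while the series shares here are for the central 500 bp. The region 9784 bp upstream of Krt18 holds sites only outside its central 500 bp. No region held the palindromic SMAD site GTCTAGAC or the grainyhead site AACCGGTT (0 of 52 each, upper limit 6.88%), which 0.822% and 0.195% of the series held. The TEAD site ACATTCC was in 5 regions (9.62%, against 9.40%) and the CTCF consensus in 3 (5.77%, against 4.03%). All sites were searched on both strands.

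Of 42 other keratin genes matched in the annotation, none had its 5′ end covered in vehicle, 2 did at 2 h (Krt80 and Krt16) and 2 at 12 h (Krt16 and Krt20, the latter by a region of 323 bp). Of 13 genes for proteins that anchor keratins or act with them, 3 were covered in vehicle, 5 at 2 h and 5 at 12 h. Over all protein-coding genes the lists covered 35.9%, 41.4% and 41.5% of 5′ ends, so coverage was also higher under TGFβ over all genes. Dsp, which encodes desmoplakin, the protein that ties keratins to desmosomes, had 579 bp over its start in vehicle, 2000 bp after 2 h and 2850 bp after 12 h. Pkp1, which encodes plakophilin 1, was not covered in vehicle and was covered by 377 bp after 2 h and 570 bp after 12 h. Jup, which encodes plakoglobin, was covered by 1009, 1019 and 944 bp and Pkp2, which encodes plakophilin 2, by 919, 787 and 701 bp. The 5′ end of the hemidesmosome gene Itgb4 was covered at 2 h (810 bp), with a region within 1000 bp of it in both TGFβ lists. That of Dst was covered at 12 h (865 bp), with a region within 1000 bp of it in all 3 lists. Dsp and Krt8 were thus widest at 12 h, whereas Pkp2 was narrowest there.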

How the data were processed

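ATAC-seq libraries of 6 samples (3 conditions, 2 replicates each) were processed by the authors with the ENCODE ATAC-seq pipeline, mapped to mm9, and peaks were called with MACS2 2.1.2 and kept where reproducible between replicates. The deposited lists give peak start and end, and the vehicle list also a peak score from 540 to 1000 without a stated scale, which was not used for any comparison. Per the deposited values, the fifth column of the TGFβ lists numbers the lines and was not used. Read depth is not in the lists. The study's supplement states it for each replicate, and it was not used in any computation.

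Repeated lines were reduced to distinct intervals (18994, 36867 and 36874 in vehicle, at 2 h and at 12 h), those under 150 bp were left out, and gaps under 1000 bp were joined. Genes were taken from GENCODE vM1 on NCBIM37, and RefSeq starts were located by matching their sequence. Python 3.11.15, numpy 2.4.6, scipy 1.17.1 and matplotlib 3.10.9 were used. Joining and overlap steps were tested on simulated data against a direct count (5490 comparisons, 0 differing). No test between conditions was made, since each list stands for 1 condition. Coordinates are 1-based.

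The 7 genes and the lists of other keratins, partners and markers were chosen with earlier results of these data known. Regions are named where they lie within 5 kb of a 5′ end, are the nearest in both TGFβ lists without vehicle, are among the 3 widest at 12 h or are vehicle regions that a TGFβ list lacks. The 2 h alone regions at Krt8 and Krt18, the regions at the starts of Eif4b, Tenc1, Eif1 and Krt86, and the CpG and TATA comparisons were chosen after their values were seen. Alternatives were other merge gaps, widths, windows, start definitions, overlaps and list lengths.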

Additional observations from a re-analysis of the deposited data

How the results depend on the processing

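Of 118 alternative values, 111 stayed within 1.5 times the count or within the 95% interval of the share, and 7 did not. The alternatives for single loci were added after seeing the data. Shortening the TGFβ lists to the 18337 widest intervals, as many as the vehicle list holds, lowered the share of regions in both TGFβ lists without vehicle to 11.1% and the share of 2 h regions without a vehicle region to 37.0%, and left 2 regions at 2 h alone at Krt8 and Krt18 and 2 regions in both TGFβ lists without vehicle at Krt7. This setting keeps fewer intervals by construction, and it was not run over the whole series, so these values have no series share beside them. With a window of 200 kb, Krt8 and Krt18 had 1 region in both TGFβ lists without vehicle and Krt5 had 1 region. Within 100 bp of the centre, an AP-1 site was in 26.9% of regions. Krt8 and Krt18 had 0 regions in both TGFβ lists without vehicle under every other setting run. No paired analysis was possible because each list was made from both replicates, and for the same reason no replicate could be left out. The absence of a region from a list says that no reproducible peak was called. The lists hold no reads, so the effect of depth on a missing region was not tested.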
